A study of Mus musculus with 14 samples.

Results

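The cytosolic ribosomal protein genes are the genes whose protein products, together with ribosomal RNA, build the ribosomes of the cytoplasm. They were chosen by symbol: Rpl or Rps followed by a digit, with Rplp0, Rplp1, Rplp2 and Rpsa, and without ribosomal S6 kinases, pseudogenes and copies whose symbol ends in l. The rule found 84 of the 21138 genes in the deposited table. Of these, 77 encode subunits of the standard ribosome, with 43 in the large subunit, 3 in its P-stalk and 31 in the small subunit. The other 7 are the paralogue Rpl22l1, the related genes Rpl7l1 and Rps19bp1, and the copies Rps27rt, Rpl35rt, Rpl27rt and Rps23rg1, which their names mark as retrogenes.

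The RNA of 648 single mouse cells was read by Smart-seq2, a plate method that makes a full-length library of each cell. Tumor-bearing mice were female C57BL/6J animals aged 6 to 8 weeks that had received fluorescent cells of B16F10, a melanoma line grown from the same strain. From 9 such samples came 539 cells of blood and lung, sorted into classes that the labels call CTC (43 cells, 5 samples), DP (450 cells, 9 samples) and WBC (46 cells, 6 samples). The 5 control samples held 22 cultured B16F10 cells, whose labels also give the cell type CTC, and 18 CDP, 24 Duplike, 24 PltLike and 21 WBC cells whose treatment is given as naive, from female C57BL/6J animals of the same ages. The labels do not spell out these class names. Whether each sample is its own animal is not stated, and p-values then measure the spread between these samples, which may be technical. Each cell name belonged to 1 sample. Samples of tumor-bearing mice carry the numbers 1 to 9, which only name them. Titles of samples 1 to 6 start with C and those of the rest with P, letters that are not interpreted here. All CTC and WBC cells of tumor-bearing mice came from samples 1 to 6, while DP cells came from both kinds.

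Every protein of the cell is made on ribosomes, which join a small subunit, where the messenger RNA is decoded, to a large subunit, where the peptide bond is formed. The P-stalk of the large subunit, built from Rplp0, Rplp1 and Rplp2, recruits the elongation factors. Messenger RNAs of ribosomal proteins are abundant, are made in balanced amounts, and begin with a terminal oligopyrimidine tract, a C followed by a run of C and T, through which growth signals acting on mTOR control their translation. Melanoma cells grow in culture and divide often, while neutrophils are short-lived, non-dividing blood cells, and B cells are lymphocytes that can become antibody-producing cells.

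A run of C and T near the annotated start was more common in these genes than in genes at large. In RefSeq, on GRCm38.p6, 62 of the 84 genes had a promoter entry. A run of at least 8 bases that are each C or T, beginning with C and read on the gene's own strand, lay within 50 bases of the annotated start in 50 of these 62 genes (80.6%), against 32.0% of all 27025 genes with an entry and 31.9% of mitochondrial ribosomal protein genes. Among the 57 standard subunits with an entry, the run was found in 48. Of the 9922 genes with an entry that were tested in CTC against WBC, 32.4% had it. The ETS-type motif CCGGAAG was sought on either strand of the 300 bases around the start. It was found in 24 of the 62 (38.7%), against 9.93% of all genes and 37.7% of mitochondrial ribosomal protein genes. Unlike the run of C and T, this motif thus did not set the cytosolic genes apart from the mitochondrial ones. A match describes letters only and is not a measured binding site or start. The run could lie on either side of the annotated start, so it need not begin the messenger RNA. Examples are shown because Rps6, Rplp2, Rps9 and Rpl38 come from different parts of the ribosome and carry a run of C and T across the annotated start. Each line gives 15 bases before and 15 from the annotated start, with the longest run of C and T in capitals.
Rps6: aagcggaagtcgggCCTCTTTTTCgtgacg
Rplp2: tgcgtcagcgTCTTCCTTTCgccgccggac
Rps9: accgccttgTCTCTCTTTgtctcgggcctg
Rpl38: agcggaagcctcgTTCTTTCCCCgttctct
These windows lie at chr4:86857353-86857382 on the minus strand for Rps6, chr7:141447636-141447665 on the plus strand for Rplp2, chr7:3704026-3704055 on the plus strand for Rps9 and chr11:114668565-114668594 on the plus strand for Rpl38.

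The genes were detected in nearly every cell. The 77 subunit genes each had counts in 629 to 648 of the 648 cells (median 644), and 6 of them in every cell. Cells led by neutrophil markers were the exception, with a median of 64 of the 77 (lowest 32, 14 cells), against a median of 77 in CTC and in the other kinds of leukocyte-side cell. Together the 84 genes took 4.94% of all counts, and the 5 highest took 18.1% of that. Per transcript length, in TPM (counts divided by transcript length and scaled to a fixed total) over the sums of counts, the highest were Rplp0 at a median of 3901, Rplp1 at 2704 and Rps18 at 2261. The lowest of the genes with a length were Rps19bp1 at 69.8, Rpl22 at 95.4 and Rpl17 at 110, followed by Rps20 at 112 and Rps27rt at 145. Rpl35rt, Rpl27rt and Rps23rg1 had no length in the annotation and were not ranked. Of the counts of the 84 genes, Rpl27rt and Rps23rg1 took 0.000748% and 0.000203%, far less than Rps19bp1 at 0.0878%. The value of Rps20 is uncertain, because the annotation gives it a transcript length of 3706 bases. Total counts per cell ran from 20525 to 104170496 with a median of 15.8 Mcounts (megacounts). Class medians were 22.1 Mcounts in CTC, 15.8 in DP, 4.93 in WBC and 1.05 in naive WBC. Melanocyte markers summed to 10391 to 30178 CPM (counts scaled to a fixed total, not by length) in the CTC samples and 20.7 to 795 in the WBC samples, and pan-leukocyte markers to 547 to 867 and 8142 to 13465. In DP samples both sums varied widely, from 168 to 30240 for melanocyte and from 916 to 6943 for pan-leukocyte markers. DP cells were therefore also described on 2 sides of a marker cut, with 280 tumor-high cells, whose mean melanocyte marker level exceeded their mean pan-leukocyte level, and 170 tumor-low cells. No ribosomal gene entered that cut, and 26 DP cells lay within 2 log2 units of it.

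Ribosomal protein genes took a similar share of all counts in CTC and DP, and in sums of cells a larger one in most WBC samples. Each sample's value is the mean over its tissues. The share was 4.92% ± 0.55 in CTC (SD, n = 5), with 4.58%, 5.73%, 5.21%, 4.36% and 4.71% in samples 1, 2, 3, 5 and 6. It was 4.84% ± 0.78 in DP (n = 9), from 3.29% to 5.83% with a median of 5.02%. In WBC it was 5.96% ± 1.19 (n = 6), from 3.76% to 7.15% with a median of 6.13%. The WBC range was wide and its lowest sample, number 6, lay below every CTC sample, so the groups overlapped. Some WBC sums rest largely on their deepest cell. That cell gave 68.4% of the counts in WBC sample 6, where the share without it was 5.29% and not 3.76%. It gave 43.3% in sample 1 (5.25% without it) and 54.4% in sample 4 (8.79% without it), sums of 3 and 2 cells. By the median cell of each sample the classes lay closer, at 4.93% ± 0.62 in CTC, 4.78% ± 0.97 in DP and 5.25% ± 0.82 in WBC, and WBC lay below CTC in samples 2 (5.57% and 5.94%) and 3 (4.18% and 5.09%). Tumor-high DP had 5.70% ± 1.15 (n = 8) and tumor-low DP 5.05% ± 1.86 (n = 9), both above DP as a whole. In these means each sample and tissue counts alike, however few cells of a side it holds. In sample 1 the tumor-high value averages 10.4% of 2 lung cells with 4.62% of 30 blood cells. Over single cells the medians were 4.94% in tumor-high and 3.66% in tumor-low DP. Cultured B16F10 cells stood at 5.23%, and naive WBC at 6.31% pooled and 4.53% in the median cell. In sums of cells, fewer cells of a type and less RNA per cell cannot be told apart, and a share says nothing of the total RNA of a cell.

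Single cells differed far more in the leukocyte classes than in the tumor-cell classes. The coefficient of variation of the share was 0.135 over B16F10 cells, 0.231 over CTC and 0.261 over tumor-high DP. It was 0.543 over tumor-low DP, 0.726 over WBC and 0.732 over naive WBC. Single WBC held from 0.265% to 23.5%, while single CTC held from 3.32% to 9.58%. Median depth was lower in the leukocyte classes, and its part in this spread was not tested.

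**Figure D1:**
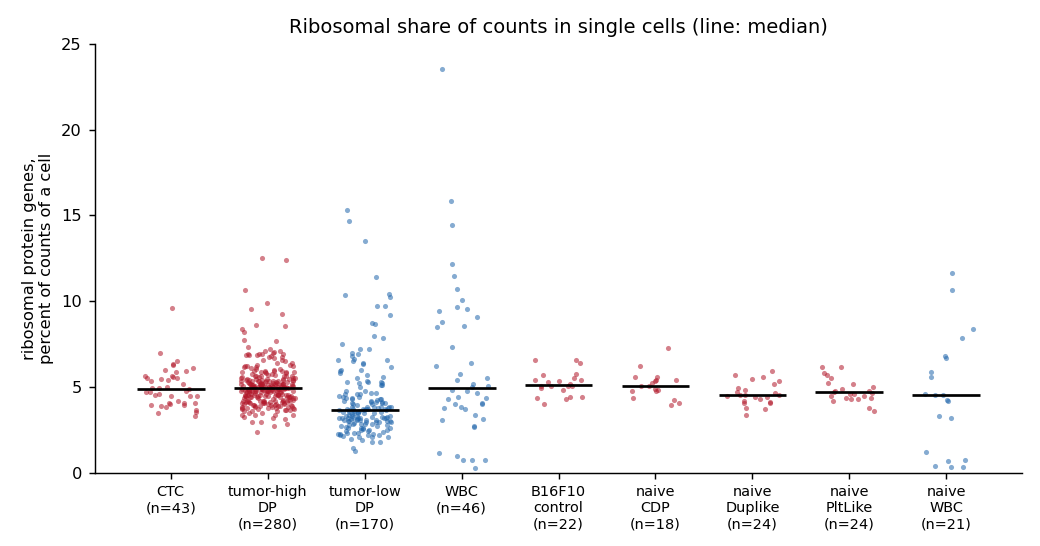
Share of a cell's counts that fell on the 84 ribosomal protein genes (vertical axis, percent), with 1 point per cell, the number of cells under each class and the median as a line. Most CTC, B16F10, CDP, Duplike and PltLike cells lie in compact clouds near 5%. Tumor-high DP have their median there too, with single cells from 2.35% to 12.5%. Tumor-low DP, WBC and naive WBC spread from under 2% to over 10%.

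Among leukocytes the share differed by the kind of leukocyte. The 234 cells with the lower melanocyte score were placed by the highest of their marker scores, and 17 of them had a lead of less than 1 log2 unit over the next list. WBC led by B-cell markers held a median of 9.65% (9 cells of 4 samples), B-cell-marker DP 8.68% (13 cells of 5 samples) and naive B-cell-marker cells 7.84% (7 cells of 1 sample). WBC led by monocyte and macrophage markers held 4.40% (22 cells), DP of that kind 3.57% (100 cells) and naive cells 4.38% (8 cells). WBC led by neutrophil markers held 0.868% (8 cells of 2 samples) and naive ones 0.538% (6 cells). The order from neutrophil to monocyte to B-cell markers was thus the same in tumor-bearing and naive cells.

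The same order appeared within samples. The median B-cell-marker cell exceeded the median monocyte-marker cell in 9 of 9 samples that held both, the naive sample among them, by 3.46 to 8.59 percentage points. Neutrophil-marker cells lay below monocyte-marker cells in 3 of 3 samples, with differences of -3.85 to -2.93 points. Alveolar macrophages, the resident phagocytes of the air sacs, gave no single direction: DP cells led by their markers, all from lung, held 3.42% (48 cells), and the kind lay above monocyte-marker cells in 4 of 7 samples. Cells led by fibroblast markers held 6.41% in DP (9 cells) and 9.80% in WBC (2 cells). Depth moved with kind in part: the median was 1.83 Mcounts in neutrophil-marker WBC and 11.7 Mcounts in B-cell-marker WBC, but 4.04 Mcounts in monocyte-marker WBC, and among naive cells 0.588, 0.999 and 1.20 Mcounts for neutrophil, B-cell and monocyte markers. Its part in the order was not tested.

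**Figure D2:**
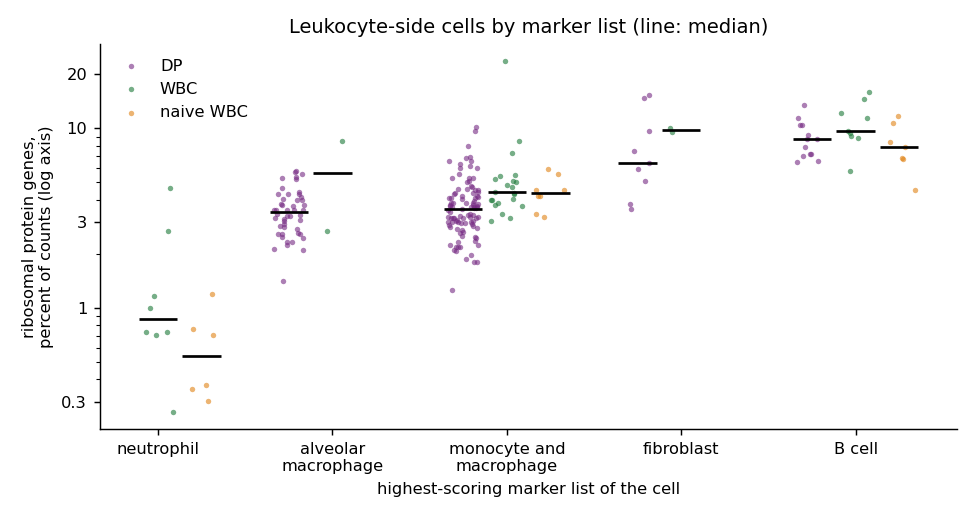
Share of counts on the 84 genes (vertical log axis, percent) in leukocyte-side cells, grouped by the marker list with the highest score and coloured by class, with medians as lines. Neutrophil-marker cells have medians of 0.868% in WBC and 0.538% in naive WBC, and B-cell-marker cells 9.65% and 7.84%.

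In the median, neutrophil-marker cells also had another mixture of ribosomal protein transcripts, but single cells differed widely. Over the 14 such cells, Rps9, of the small subunit, took a median of 7.47% of ribosomal counts (0.138% to 26.8%). Rps27, a small-subunit zinc-binding protein, took 5.05% (0.951% to 27.1%). Other genes peaked in single cells, with Rps13 at up to 32.8% (median 0.0210%) and Rpl10 at up to 26.8% (median 0.232%). The part of low depth in this mixture was not tested. Rplp0 ranked only 22nd there, at 0.253%, while it led in CTC at 5.52% and in B-cell-marker cells at 6.31%. The following are medians of single-cell CPM without TMM factors, a scale unlike that of the sums tested below. Rps27 stood at 486 in neutrophil-marker cells, 470 in monocyte-marker cells and 487 in CTC, so its level was much alike across these kinds. It stood at 2084 in B-cell-marker cells. Rplp0 ranged far more, at 18.9, 1163, 2521 and 5678 CPM in neutrophil-marker cells, monocyte-marker cells, CTC and B-cell-marker cells. Rps6, the small-subunit protein phosphorylated by S6 kinases, stood at 7.48, 472, 818 and 1675 CPM in that order. Rps29, a small zinc-binding protein of the small subunit, was lowest in neutrophil-marker cells at 126 CPM, with 397 in CTC, 886 in monocyte-marker cells and 1001 in B-cell-marker cells. With 14 cells of 3 samples, these are descriptions of the cells read here.

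Against WBC of the same samples, ribosomal protein transcripts were lower in both tumor-related classes on the scale of the tests. The test was edgeR's quasi-likelihood test with trimmed-mean (TMM) scaling, with sample and tissue in the model and Benjamini-Hochberg adjustment over 12595 genes at 0.05, and all 84 genes passed its filter on low counts. In DP against WBC, 43 of 84 fell and 0 rose, where 2.91% of all genes fell and 17.6% rose. The median log2 difference of the 84 was -0.79, with a median standard error (SE) of 0.28, against 1.17 over all genes. In CTC against WBC, 63 of 84 fell and 0 rose, where 10.6% of all genes fell and 16% rose. Their median was -1.07, against 0.74 over all genes. These comparisons share the WBC samples.

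Small-subunit genes were called more often than large-subunit genes, without a test of that difference. In DP against WBC, 23 of 31 small-subunit genes fell (median log2 difference -0.92), with 17 of 43 large-subunit genes (-0.69) and 2 of 3 P-stalk genes. In CTC against WBC the counts were 27 of 31 (-1.16), 31 of 43 (-1.0) and 3 of 3. The median member difference lay below 0 in 6 of 6 samples for DP against WBC, from -1.05 to -0.20, and in 5 of 5 samples for CTC against WBC, from -1.36 to -0.51. In CTC against WBC, 47 of the 84 had every CTC sample below every WBC sample, where 7.13% of all genes did. In DP against WBC only Rps9, Rps19 and Rpl34 did, where 1.13% of all genes did.

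How many fell depended on the scaling. With total counts alone and no TMM factors, a setting chosen after seeing the data, 6 of 84 fell in DP against WBC (median log2 difference -0.27) and 11 of 84 in CTC against WBC (-0.29), and the median of all genes moved to 1.71 and 1.51. Estimates still lay below 0 for 70 and 67 of the 84. Without B-cell-marker cells the counts were 13 and 34, and in blood cells alone 17 and 28. Without sample 5 they were 17 and 32, and with at least 5 cells per sum 5 and 20. The share of all genes called under these settings is not given here. Rps27, Rps9, Rps19 and Rpl9 fell in DP against WBC under all 19 settings run. In CTC against WBC 10 genes did: those 4 with Rps12, Rps24, Rps29, Rpl36a, Rpl37a and Rpl41.

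**Figure D3:**
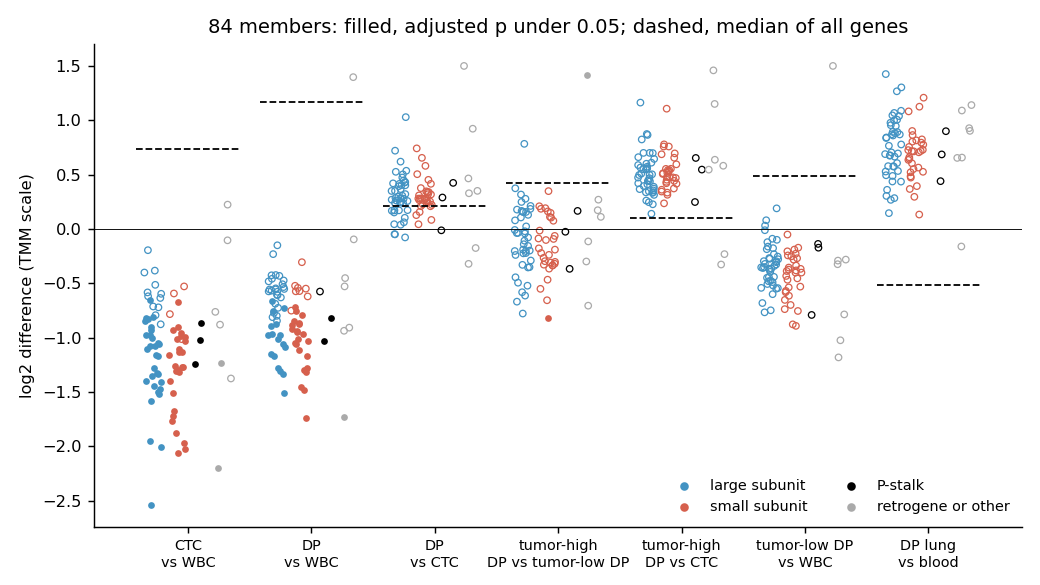
Log2 difference of each of the 84 genes (vertical axis, TMM scale) in 7 comparisons, coloured by role, filled where the edgeR adjusted p was under 0.05, with the median of all genes as a dashed line. In CTC against WBC 63 points are filled below 0 and in DP against WBC 43, while DP against CTC, tumor-high DP against CTC, tumor-low DP against WBC and lung against blood have no filled point.

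Among small-subunit genes, Rps27 differed most from WBC. On the TMM scale its level was 347, 377, 475, 411 and 351 CPM in CTC samples 1, 2, 3, 5 and 6. It was 334 to 870 CPM in the 9 DP samples (median 499) and 657 to 2055 CPM in the 6 WBC samples (median 1729). All CTC samples lay below all WBC samples, and the DP range met only the WBC value of sample 6. In that WBC sum the deepest cell gave 68.4% of the counts. Rps27 fell by 1.74 on the log2 scale in DP against WBC (SE 0.29, edgeR adjusted p = 0.000334) and by 2.06 in CTC against WBC (SE 0.32, adjusted p = 4.08e-05). With total counts alone the differences were -1.22 (adjusted p = 0.0041) and -1.27 (adjusted p = 0.00381), the former with an SE of 0.29.

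Rps19, a small-subunit protein whose gene is mutated in Diamond-Blackfan anaemia, had every WBC sample above every CTC and DP sample. Its CTC levels were 602, 674, 742, 611 and 609 CPM, close together compared with the other classes. DP samples ran from 545 to 1460 CPM (median 763), which takes in all CTC values, and WBC samples from 1652 to 3096 CPM (median 2037). The highest WBC value was that of sample 2, where fibroblast markers summed to 21848 CPM against at most 7.30 CPM in the other WBC samples, and their part was not tested. Rps19 fell by 1.45 in DP against WBC (SE 0.23, edgeR adjusted p = 0.000202) and by 1.72 in CTC against WBC (SE 0.25, adjusted p = 2.40e-05). Rps9 had the same form, with 740 ± 142 CPM in DP (n = 9) and 558 ± 70.8 in CTC (n = 5) against 1864 ± 456 in WBC (n = 6). Its log2 differences were -1.48 and -1.76 (edgeR adjusted p = 0.000143 and 1.31e-05). Rps29 stood at 320 ± 61.4 CPM in CTC, 585 ± 193 in DP and 1258 ± 323 in WBC, with differences of -1.32 and -1.97 (edgeR adjusted p = 0.00229 and 4.41e-05).

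After Rps27, the largest small-subunit falls in CTC were those of Rps12, Rps29 and Rps24, with Rps12 and Rps24 lower by 2.02 (edgeR adjusted p = 0.000747) and 1.88 (adjusted p = 0.00013). Rps6 fell less than these, by 0.87 in DP (742 ± 192 CPM, edgeR adjusted p = 0.0151) and by 0.95 in CTC (678 ± 146 CPM, adjusted p = 0.0112) against 1254 ± 264 CPM in WBC. Rpsa, the laminin-receptor protein of the small subunit, fell by 0.87 (adjusted p = 0.0151) and 1.10 (adjusted p = 0.00461). Rps4x, an X-linked small-subunit gene, fell by 0.75 (adjusted p = 0.0429) and 1.01 (adjusted p = 0.011). Rps27a, made as a fusion with ubiquitin, fell by 0.95 (adjusted p = 0.00869) and 1.16 (adjusted p = 0.00278). These 4 genes thus fell in both comparisons on the TMM scale, with the larger estimate in CTC, a difference that DP against CTC did not call. Neither the calls nor that order held for Rps6 with total counts alone, at -0.34 in DP (edgeR adjusted p = 0.376) and -0.19 in CTC (adjusted p = 0.657). The corresponding pairs were -0.39 and -0.37 for Rps27a (adjusted p = 0.293 and 0.346), -0.37 and -0.37 for Rpsa (0.339 and 0.366), and -0.25 and -0.25 for Rps4x (0.545 and 0.555).

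**Figure D4:**
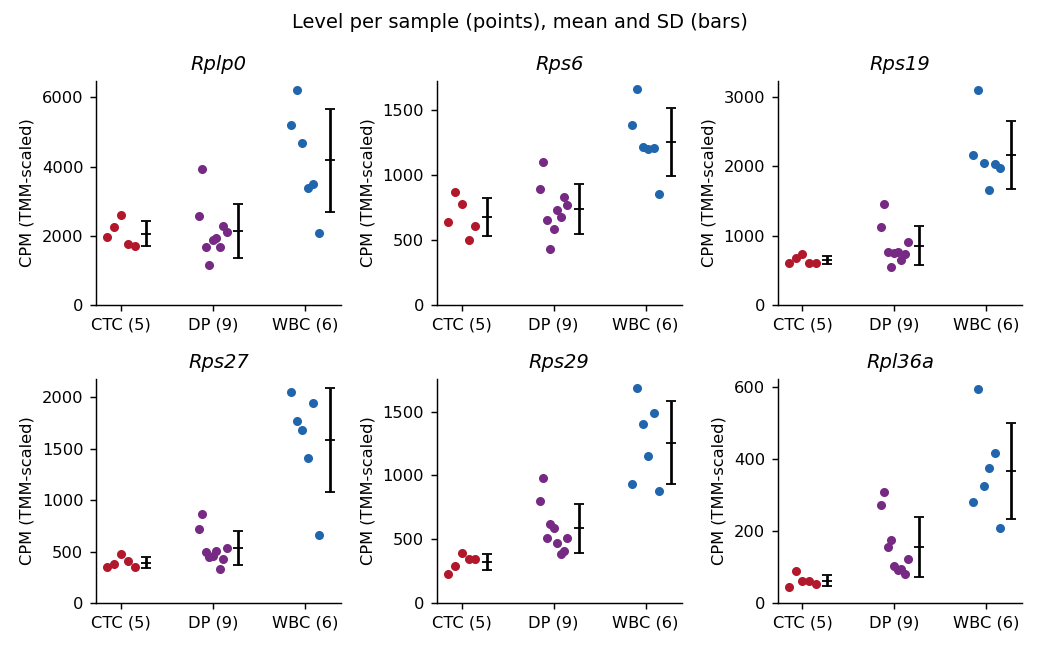
TMM-scaled CPM of 6 genes in every sample (points) of CTC, DP and WBC, with mean and SD as bars at the right of each group. For Rps19 the DP samples stay at or below 1460 and the WBC samples at or above 1652, while for Rplp0, Rps6, Rps27, Rps29 and Rpl36a the DP and WBC ranges meet.

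Among large-subunit genes, Rpl36a, a small protein of the transfer-RNA exit region, had the largest difference in CTC. Its levels were 45.1, 88.8, 61.6, 61.4 and 53.6 CPM in CTC samples 1, 2, 3, 5 and 6. In DP it was 79.1 to 309 CPM (median 120) and in WBC 207 to 594 CPM (median 350). Samples 1 and 2 were the highest of the DP samples and the only ones above the lowest WBC sample. Rpl36a fell by 2.54 in CTC against WBC (SE 0.44, edgeR adjusted p = 0.00015) and by 1.51 in DP against WBC (SE 0.40, adjusted p = 0.0105). Without sample 5 the latter was -1.34 (edgeR adjusted p = 0.0982). Rpl37a and Rpl9 fell by 1.33 and 1.30 in DP (edgeR adjusted p = 0.00276 and 0.000787) and by 1.95 and 1.58 in CTC (adjusted p = 7.98e-05 and 0.000114). Rpl17 fell by 2.0 in CTC (adjusted p = 0.00182).

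Rpl11, which with Rpl5 binds the p53 regulator Mdm2, fell by 0.97 in DP (edgeR adjusted p = 0.0204) and by 1.40 in CTC (adjusted p = 0.00195). Rpl5 had 582 ± 185 CPM in DP, 458 ± 64.2 in CTC and 841 ± 207 in WBC, with adjusted p = 0.15 for DP and 0.0495 for CTC in edgeR. Rpl10, which joins late in assembly and is needed for subunit joining, fell by 0.87 (adjusted p = 0.00925) and 1.28 (adjusted p = 0.000585). Rpl13a, a protein with a known role outside the ribosome in interferon responses, fell by 1.06 (adjusted p = 0.00733) and 1.34 (adjusted p = 0.00166). Rpl39, a small protein that lines the peptide exit tunnel, had differences of -0.84 in DP (adjusted p = 0.0622) and -1.35 in CTC (adjusted p = 0.00604). Rpl3, beside the peptidyl transferase centre, passed the edgeR threshold in neither, with -0.63 in DP (adjusted p = 0.0999) and -0.58 in CTC (adjusted p = 0.157). With total counts alone the Rpl3 estimate in CTC against WBC changed sign, to 0.18 (edgeR adjusted p = 0.687). Rpl22 had -0.69 (adjusted p = 0.16) and -1.16 (adjusted p = 0.0236), and its paralogue Rpl22l1 -0.53 (adjusted p = 0.409) and -0.88 (adjusted p = 0.152).

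Differences of the P-stalk genes lay within the range of the other subunits. Rplp0 stood at 1972, 2258, 2615, 1779 and 1719 CPM in CTC samples 1, 2, 3, 5 and 6. It stood at 1170 to 3918 CPM in DP (median 1950) and 2089 to 6217 CPM in WBC (median 4102). The lowest WBC sample, number 6, where the deepest cell gave 68.4% of the counts, lay within both other ranges. Rplp0 fell by 1.03 in DP (SE 0.24, edgeR adjusted p = 0.00417) and by 1.02 in CTC (SE 0.26, adjusted p = 0.0054). Rplp2 fell by 0.82 (adjusted p = 0.0463) and 1.24 (adjusted p = 0.00545). Rplp1 fell by 0.87 in CTC (adjusted p = 0.0115), with -0.57 in DP (adjusted p = 0.0762). With total counts alone, Rplp0 had -0.52 in DP (adjusted p = 0.144) and -0.28 in CTC (adjusted p = 0.483), so these calls depend on the TMM factors.

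DP and CTC did not differ in any of the 84 genes past the threshold. With edgeR, 0 rose and 0 fell, where 5.85% of all genes rose and 0% fell. An unadjusted p under 0.05 was found for 2 of them, against 1457 of all 12595 genes, and DESeq2 also called 0 of the 84. The median log2 difference was 0.28, against 0.21 over all genes, and the sample medians lay above 0 in 5 of 5 samples (0.08 to 0.90). The smallest p belonged to Rpl36a at 1.03 (SE 0.43, edgeR adjusted p = 0.251), Rps29 at 0.66 (SE 0.30, adjusted p = 0.345) and Rpl37a at 0.62 (SE 0.31, adjusted p = 0.48), each higher in DP in 5 of 5 samples. Rpl39, Rps12 and the retrogene Rpl27rt had every DP sample above every CTC sample, where 3.78% of all genes did. These 3 of 84 are close to that share, so the count does not set the ribosomal protein genes apart. Rpl27rt lies near the floor, with 118 counts over all CTC sums.

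The sides of the DP class differed in 2 ribosomal protein genes past the threshold, a count that depended on which cells entered. In tumor-high against tumor-low DP, over 12576 genes, Rpl7l1 rose and Rps29 fell, where 11.7% of all genes rose and 9.26% fell. Rpl7l1, which resembles Rpl7 and is found in the nucleolus, stood at 132 to 218 CPM in tumor-high DP (median 158, n = 8) and 23.96 to 249 CPM in tumor-low DP (median 60.2, n = 9). Sample 8 held the 249 CPM, and the other tumor-low samples had at most 94.0 CPM. The log2 difference was 1.42 (SE 0.40, edgeR adjusted p = 0.00841), with the higher level in tumor-high cells in 7 of 8 samples. CTC had 155 ± 24.03 CPM of Rpl7l1, and its plain CPM was 176 in B16F10 and 68.6 in naive WBC. Without B-cell-marker cells the difference of Rpl7l1 was 0.97 (edgeR adjusted p = 0.178), and without cells near the marker cut 1.36 (adjusted p = 0.117). Rps29 stood at 310 to 1319 CPM in tumor-high and 565 to 1645 CPM in tumor-low DP, a difference of -0.82 (SE 0.28, edgeR adjusted p = 0.0325), lower in 7 of 8 samples. With total counts alone it was -0.53 (adjusted p = 0.133).

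The median of the 84 in this split, -0.10 against 0.42 over all genes, changed sign with the scaling, to 0.057 with relative-log size factors, 0.037 in DESeq2 and 0.20 with total counts alone. In blood cells alone it was -0.73, with 34 genes lower and 1 higher, and without the cells near the marker cut 19 fell and 0 rose. With at least 5 cells per sum 26 fell and 1 rose. The share of all genes called under these settings is not given here, so these counts describe the 84 genes alone. Of the 10 tumor-high and 16 tumor-low DP cells near the cut, 4 and 7 had a fibroblast score over 8. Summed fibroblast markers in tumor-high DP were 41867 and 57359 CPM in samples 1 and 2 and at most 1073 CPM in the other samples. Rplp0 was highest there in sample 2, at 5742 CPM, and Rps27 in samples 1 and 2, at 1038 and 1084 CPM against at most 595 CPM elsewhere. The part of fibroblast-marker RNA in these values was not tested.

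Comparisons at a matched side gave no calls. In tumor-high DP against CTC, 0 of 84 rose and 0 fell in edgeR, where 1.03% of all genes rose and 0% fell. DESeq2 also called 0 of the 84. An unadjusted edgeR p under 0.05 was found for 4 of them, against 856 of all 12576 genes. The median was 0.51, against 0.10 over all genes, and the smallest p belonged to Rpl36a at 1.16 (SE 0.49, adjusted p = 0.428), then Rps12 at 1.11 (adjusted p = 0.534) and Rpl39 at 0.88 (adjusted p = 0.657). Rps12 and Rpl27rt had every tumor-high DP sample above every CTC sample, where 0.867% of all genes did. Of these, Rpl27rt lies near the floor, with 118 counts over all CTC sums. In tumor-low DP against WBC, 0 rose and 0 fell in edgeR, where 0.318% and 0.0318% of all genes did. DESeq2 called 1 of the 84 lower. An unadjusted edgeR p under 0.05 was found for 13 of them, against 1623 of all 12576 genes. The median of the 84 was -0.36, against 0.49 over all genes. Rplp0 had the smallest p, at -0.79 (SE 0.28, edgeR adjusted p = 0.189), followed by Rps9 at -0.75 (SE 0.27, adjusted p = 0.19) and Rps7 at -0.89 (SE 0.34, adjusted p = 0.221).

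With side as a term in the model, lung and blood DP differed in none of the 84 genes past the threshold. The fit estimated 1 tissue effect over both sides, and no test was run within a side. In edgeR over 10909 genes, 0 of 84 rose and 0 fell, where 0.0917% and 0.00917% of all genes did. An unadjusted p under 0.05 was found for 18 of them, against 1132 of all 10909 genes, and DESeq2 called 0 of the 84. The median was 0.72, against -0.51 over all genes. Rpl41, the shortest ribosomal protein, had the smallest p, at 1957 ± 1724 CPM in lung and 633 ± 202 in blood, a log2 difference of 1.27 (SE 0.43, edgeR adjusted p = 0.282). Rps28 and Rpl39 followed at 1.21 (SE 0.45, adjusted p = 0.339) and 1.30 (SE 0.50, adjusted p = 0.358). All 3 were higher in lung in 5 of 5 samples, and the lung values varied widely, with Rpl39 at 181 to 1566 CPM against 145 to 256 CPM in blood.

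The share of counts went in opposite directions on the 2 sides, and that difference was not tested. In tumor-high DP the lung share exceeded the blood share in 5 of 5 samples: 10.4% and 4.62% in sample 1, 9.51% and 5.33% in sample 2, 5.03% and 4.71% in sample 3, 7.23% and 4.33% in sample 5, and 5.01% and 4.29% in sample 7. These lung sums held 2, 3, 2, 5 and 34 cells, so the large differences rest on few cells. Samples 1 and 2, with the largest differences, are those whose tumor-high DP held 41867 and 57359 CPM of summed fibroblast markers, against at most 1073 CPM in the others, and the part of that RNA was not tested. The mean difference was 2.79 percentage points (SD 2.32), and by the median cell lung was higher in 4 of 5 samples. In tumor-low DP all 4 samples with both tissues had the lower share in lung. The differences averaged -1.53 points (SD 0.90), though by the median cell lung was higher in 2 of 4. B-cell-marker DP, which have the largest shares among leukocyte-side DP with over 10 cells, were all from blood (13 cells). Fibroblast-marker and alveolar-macrophage-marker DP were all from lung (9 and 48 cells). The part of these cell kinds in the tissue difference was not tested.

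Copies of ribosomal protein genes are listed apart from their sources, and reads from near-identical sequence may have been split between them, since the handling of reads with several matches is not given in the sources used here. Rps27 and Rps27rt show why. Each line gives 5 bases before and 25 from the annotated RefSeq start, with the 24 bases that both share in capitals, for Rps27 at chr3:90213624-90213653 and for Rps27rt at chr9:114982715-114982744, both on the minus strand of GRCm38.p6.
Rps27: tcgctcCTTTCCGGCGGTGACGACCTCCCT
Rps27rt: ccttgCTTTCCGGCGGTGACGACCTCCCTa
The value of Rps27rt was 5.63% to 9.63% of that of Rps27 in the CTC sums (median 6.73%), 6.48% to 9.54% in DP (7.52%) and 5.68% to 12.8% in WBC (8.20%). These ranges overlapped. Rps27rt fell with Rps27, by 1.73 in DP against WBC (edgeR adjusted p = 0.0141) and by 2.20 in CTC against WBC (adjusted p = 0.00372). Both had counts in all 539 cells of tumor-bearing samples, and Rps27rt exceeded Rps27 in 0 of them. Over these cells Spearman's rho of their CPM was 0.685, a description of cells that share library, depth and possibly reads.

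**Figure D5:**
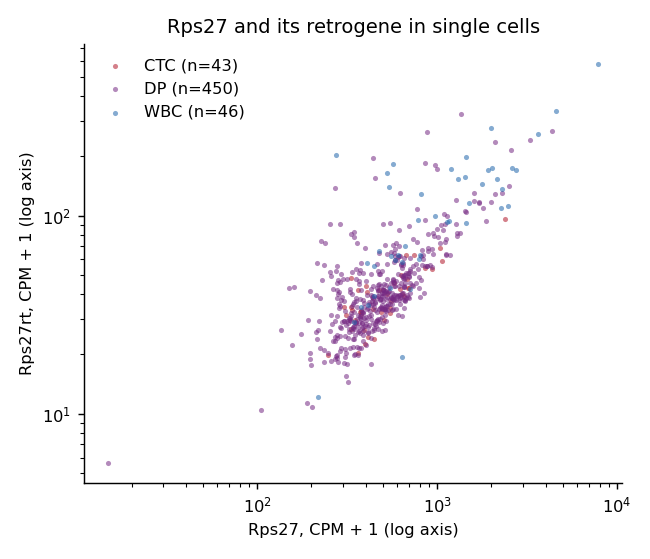
CPM + 1 of Rps27rt (vertical log axis) against Rps27 (horizontal log axis) in the 539 cells of tumor-bearing samples, with 1 point per cell coloured by class. The copy follows its source at a lower level in CTC, DP and WBC cells alike.

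Rpl35rt stood at a median of 29.0%, 28.8% and 28.6% of Rpl35 in CTC, DP and WBC, a nearly constant share. The copies Rpl27rt and Rps23rg1 were close to 0, at no more than 0.970% and 0.0527% of their sources in any sum of DP. Rpl22l1, a functional paralogue, reached a median of 89.5% of Rpl22 in CTC (70.5% to 115%), 85.8% in DP (61.6% to 112%) and 69.2% in WBC (23.6% to 116%). These ranges overlapped as well, and that of WBC took in all CTC values. Among copies that the naming rule leaves out, Rps4l stood at 0.00958 CPM in pooled CTC (11 counts), 9.20 CPM in pooled DP and 69.5 CPM in pooled WBC.

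Other genes of protein synthesis did not all move with the ribosomal proteins. Of the 3 measured ribosomal protein genes whose symbols lie outside the rule, Fau, which encodes a small-subunit protein fused to a ubiquitin-like protein, fell by 1.70 in DP (edgeR adjusted p = 0.000184) and by 2.28 in CTC (adjusted p = 3.97e-06) against WBC, and with total counts alone by 1.17 (adjusted p = 0.00249) and 1.49 (adjusted p = 0.000409). Of 15 elongation factor and other transcripts that begin with a pyrimidine tract, Tpt1 fell by 1.09 in DP (adjusted p = 0.00914) and 1.53 in CTC (adjusted p = 0.000606), and Pabpc1, the poly(A)-binding protein, by 1.22 in CTC (adjusted p = 0.0285). None of the 15 rose in either, and the list medians were -0.39 and -0.50. With total counts alone neither gene passed in edgeR, at adjusted p = 0.132 and 0.0522 for Tpt1 and 0.456 for Pabpc1. In tumor-high against tumor-low DP, Npm1, a nucleolar chaperone, rose by 0.88 (adjusted p = 0.0131) while Fau fell by 0.93 (adjusted p = 0.00856) and Pabpc1 by 0.86 (adjusted p = 0.047). Npm1 still passed with total counts alone, at 1.23 (edgeR adjusted p = 0.000633), and Fau and Pabpc1 did not, at -0.63 (adjusted p = 0.0563) and -0.57 (adjusted p = 0.176).

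Ribosome assembly genes had list medians of the opposite sign. Of 26, 2 rose and 0 fell in DP against WBC (median 0.42) and likewise in CTC against WBC (0.97), where 17.6% and 16% of all genes rose. These were Bop1, a factor of large-subunit assembly, at 4.11 and 3.99 (edgeR adjusted p = 0.0275 and 0.0214), and Polr1b, a subunit of RNA polymerase I, at 6.21 and 5.95 (adjusted p = 0.0086 and 0.00705). Of 78 mitochondrial ribosomal protein genes, 4 rose and 0 fell in DP (median 0.53) and 5 rose and 0 fell in CTC (0.79), with Mrpl16, Mrpl35, Mrpl44 and Mrpl55 in both and Mrpl41 in CTC. Of 14 measured signalling genes, Pdcd4, an inhibitor of translation initiation, fell by 3.0 and 3.04 (adjusted p = 0.018 and 0.036). It did not pass with total counts alone, at edgeR adjusted p = 0.0586 and 0.117. The median of all genes in these comparisons, 1.17 and 0.74, was itself above 0, and in DP both list medians lay below it.

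The control samples, with 1 sample per group, allow no test. By the marker cut used for DP, all 18 CDP, 24 Duplike and 24 PltLike cells were tumor-high, like the 22 B16F10 cells. All 21 naive WBC were tumor-low. The CDP, Duplike and PltLike cells, although labelled naive, thus had higher melanocyte than pan-leukocyte marker scores. In plain CPM, Rps27 stood at 626 in B16F10, 639 in CDP, 426 in Duplike, 376 in PltLike and 1417 in naive WBC. The corresponding means were 514 ± 30.5 in CTC (n = 5) and 1229 ± 445 in WBC of tumor-bearing mice (n = 6). Rps19 stood at 929, 946, 758 and 747 CPM in B16F10, CDP, Duplike and PltLike and at 1744 in naive WBC. The naive WBC value was thus the highest control value for both genes. Of the 84, 57 were lower in B16F10 than in naive WBC (median log2 ratio -0.24), and 62, 61 and 58 in CDP, Duplike and PltLike. In CTC against B16F10, 44 were lower and 40 higher (median log2 ratio -0.03).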

How the data were processed

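The authors deposited raw counts per gene and cell, whole numbers with no normalization. Per the submitters' processing notes the tools were Trim Galore, HISAT2, SAMtools, featureCounts, BWA and Picard on mm10, and the sources used here give no versions, counted annotation, strand setting or handling of reads with several matches. Smart-seq2 reads carry no molecular identifiers. Cells were assigned to samples by the deposited relation of libraries to cell names, with 0 unmapped columns, and to class and tissue by their names. No doublet caller was run. Gene lengths came from GENCODE vM21.

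Cells of the same class, tissue and sample were added up where there were 2 or more. The 3 classes had 30 sums (18 residual degrees of freedom), the fit with DP split had 42 (29) and lung against blood 26 (15). Python 3.11.15 prepared the sums, and edgeR 4.0.16 with limma 3.58.1 in R 4.3.3 tested them by quasi-likelihood (TMM, filterByExpr, sample as replicate block, tissue as a term). Every adjusted p in the text is from edgeR unless DESeq2 (version 1.42.0) is named. CPM of sums is TMM-scaled, averaged over tissues and then samples, unless called plain. Plain CPM, CPM of single cells and the pooled CPM of Rps4l are scaled by total counts with no TMM factors. The share of counts over the genes has no test. The steps were tested on simulated data.

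Classes were paired because they share a sample, which is the batch label. Over 9275 genes, the deviations of 51 same-sample pairs of sums had a median correlation of 0.0253 (-0.423 to 0.223, 5 over 0.1), and 313 other pairs -0.00472. The members and lists were chosen with earlier results of these data known. Genes were named by rule: 16 key genes, in each comparison the 8 largest differences in each direction past the threshold or else the 3 smallest p, and the 5 highest and 5 lowest per length. Results of a few genes that it names are not given. Other names are said to come from lists or from groups that did not overlap. Alternatives covered scaling, filter, test, block, cells per sum, tissue, cell weight, marker cut, B-cell-marker cells and each sample left out.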

Additional observations from a re-analysis of the deposited data

Results flagged for a closer look

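Among 40 groups of 4 to 10 samples checked, 6 had a sample whose gap to its nearest neighbour was large for the range of its group, where chance gives about 1 group in 20. Sample 2 stood apart as the highest for Rps19 in WBC (3096 CPM), and in tumor-high DP for Rplp0 (5742 CPM) and Rps6 (1378 CPM). Rps27 was highest in tumor-low DP of sample 6, at 2427 CPM. Rpl7l1, the gene that rose in tumor-high DP, was highest in WBC of sample 5 (249 CPM) and in tumor-low DP of sample 8 (249.1 CPM).

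The ribosomal share of counts, lung minus blood, averaged 2.79 percentage points in tumor-high DP and -1.53 in tumor-low DP, and in these sums every sample of either side lay in its own direction. By the median cell lung was higher in 4 of 5 and in 2 of 4 samples. In 4 of the 5 tumor-high samples the lung sums held 2 to 5 cells. The difference between the sides was not tested.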

How the results depend on the processing

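In DP against WBC, the 43 lower genes became 62 with relative-log size factors, 66 in DESeq2, 57 without the replicate block, 21 with equal cell weight, 19 without the filter, 17 in blood, 13 without B-cell-marker cells, 6 with total counts alone and 5 with at least 5 cells per sum. Leaving out 1 sample gave 17 (sample 5) to 50. In CTC against WBC, the 63 became 70, 65, 67, 56, 34, 28, 34, 11 and 20 in that order, and 32 (sample 5) to 66. The medians, -0.79 and -1.07, became -0.27 and -0.29 with total counts alone, and ran from -0.95 to -0.78 and from -1.21 to -0.97 with 1 sample left out. None of the 84 rose in either comparison under any of these settings. Counts in this section are of the 84 genes, without the share of all genes called under each setting.

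In tumor-high against tumor-low DP, the 2 genes past the threshold became 1 with relative-log size factors, without the filter, without the replicate block or without B-cell-marker cells. They became 3 with total counts alone, 35 in blood, 27 with at least 5 cells per sum and 19 without cells near the marker cut, and 1 to 6 (sample 2) with 1 sample left out. The median of -0.10 was 0.037 in DESeq2, 0.057 with relative-log size factors, 0.20 with total counts alone and -0.73 in blood. DESeq2 called 1 gene in tumor-low DP against WBC, and every other setting there, and every setting in the other comparisons, gave 0 calls. The cause of these changes was not tested, except that stricter sums, single tissues and omitted samples leave fewer sums.

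Class means of the share of counts moved by less than the spread between samples under the alternatives run for them. Some single WBC sums moved by more without their deepest cell, as in sample 4 from 6.22% to 8.79%. For the 30 gene values named for a large difference or a small p, the key genes chosen by name aside, 511 values under alternatives kept direction and side of the threshold, 31 lost their call and 0 changed sign. The groups with few cells limit precision: WBC had 46 cells, and several lung sums 2 or 3.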
